A study of Homo sapiens with 26 samples.

Results

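IGF2BP1 is an RNA-binding protein that holds on to selected mRNAs, steers their stability and translation, and gathers with them in condensates such as stress granules. S181E replaces a serine of its first disordered linker by glutamate, which mimics a permanently phosphorylated residue. The comparison described here set RNA of cells that carried mCherry-IGF2BP1 S181E against RNA of cells that carried mCherry-IGF2BP1 WT, both after exposure to 500 µM sodium arsenite for 2 h, and asked which transcripts differed between mutant and wild-type protein under oxidative stress. It rested on 6 of the 26 RNA libraries of the series, 3 per genotype, defined by their labels. The comparison was chosen with earlier results of these data known.

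All these cells descended from HCT116, a human colorectal carcinoma line, and shared the knockout of IGF2BP2, the knockout of IGF2BP3 and a Tet-OsTIR1-PURO transgene. The mCherry-IGF2BP1 proteins were delivered by lentivirus under the human PGK promoter, and the cells for RNA sequencing were, for each genotype, a population sorted through a narrow gate for mCherry and not single clones. The 3 libraries of a genotype came from separately grown dishes of the same cells. P-values therefore measure the spread between dishes, and the mutation and any other difference between the populations cannot be told apart. Libraries of the same WT and S181E cells under PBS (control), of cells carrying Y396E or RQ IGF2BP1 after arsenite, and 1 library of parental HCT116 after arsenite are used below for comparison. The knockouts had been made by sorting single-cell clones. Polyadenylated RNA was taken from a clarified lysate, so RNA that sediments with the debris was not counted.

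Arsenite reacts with protein thiols, causing oxidative damage and misfolding, and cells answer with several transcription programs. Heat shock factor 1 (HSF1) induces chaperones, NRF2 induces antioxidant and iron-handling genes, ATF4 induces amino acid and stress genes once translation initiation is blocked, and MAP kinases drive immediate early genes of the FOS, JUN, EGR and NR4A families. Sterol synthesis is governed separately, by the membrane-bound factor SREBP2, the product of SREBF2, which INSIG proteins retain in the endoplasmic reticulum when sterols are abundant.

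The 6 arsenite libraries held between 22508145 and 41467020 counts. The replicate 3 of Y396E after arsenite, which enters the joint fit, stood apart with 13897 genes with counts against 20850 to 23473 in every other library, and without it the 1058 calls given further on for S181E became 1209. Libraries of the same genotype were alike, with Pearson correlations of log2 CPM (read counts scaled to a common library size) across genes between 0.9973 and 0.9981, although every pair differed by more than sampling noise, with a chi-square per gene between 2.58 and 6.51. Transcripts of the mitochondrial genome took 10.8 to 12.3% of counts in the WT and 7.71 to 9.42% in the S181E libraries. Of 10 colorectal epithelium markers 8 passed 1 CPM in at least 1 library. EPCAM was present at 347 to 371, KRT8 at 1804 to 2158 and CDX2 at 20.8 to 23.9 CPM. KRT20 reached at most 3.38 CPM, VIL1, a marker of intestinal brush border, at most 0.188 CPM, and CEACAM5 had 0 counts. Of 5 fibroblast markers only 1 passed 1 CPM in any library (summed 9.45 to 11.5 CPM in WT and 9.56 to 11.9 CPM in S181E cells), and the summed markers of leukocytes stayed at or below 1.05 CPM and those of endothelium at or below 0.83 CPM.

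The transgene was checked first. IGF2BP1 (chr17:48997385-49056145, hg38) was listed at 0.646 CPM in the parental arsenite library. It was measured at 29.6, 27.9 and 30.0 CPM in the WT and at 43.15, 44.05 and 42.7 CPM in the S181E libraries. The genotypes did not overlap, and S181E cells carried 1.48-fold more IGF2BP1 RNA (log2 difference 0.57 ± 0.09, SE, n = 3 per group; adjusted p = 5.72e-05). The level of the transgene thus differed between the genotypes along with the mutation, and their parts in the results below cannot be told apart. IGF2BP1 RNA averaged 43.2 CPM in Y396E and 47.1 CPM in RQ cells after arsenite, 0.57 and 0.69 log2 above WT. The study chose the narrow gate so that expression would be comparable, and measured the proteins by Western blot. Gene counts do not read the altered codon. RNA of the targeted paralogs was still counted, which says nothing about the proteins, with IGF2BP2 between 70.2 and 75.7 CPM over all 6 libraries (log2 difference 0.03 ± 0.05, adjusted p = 0.786). IGF2BP3 was at 109 to 114 CPM in WT and 131 to 132 CPM in S181E cells. That gap gave a log2 difference of 0.23 ± 0.05 with adjusted p = 0.00102, under the 1.2-fold minimum of a call.

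Of 9099 protein-coding genes with sufficient counts, 207 lay on a stretch of chromosome 8 that runs from HGSNAT to the end of the chromosome and was lower as a block. These are treated separately further on. Calls required an adjusted p below 0.05 together with more than 1.2-fold change, and values are log2 S181E minus WT with their SE. Outside the stretch, 1058 of 8892 genes were called (11.9%), 483 higher (5.43%) and 575 lower (6.47%) in S181E cells. Most differences were small. Of the called genes, 897 (84.8%) lay between 1.2-fold and 1.5-fold, 70 were more than 1.5-fold higher, 91 more than 1.5-fold lower, and 12 and 18 passed a factor of 2 upward and downward. The groups of libraries did not overlap for 4697 genes outside the stretch (52.8%), including 1056 of the 1058 called. The direction of the calls depended on scaling, since 45.7% of them were higher with TMM factors and 65.3% of 1119 with library totals alone. Called higher genes had a median exon GC content of 54.7% and a median exon length of 3137 bases, against 46.5% and 4854 bases for called lower genes, and 48.8% and 3931 bases for all genes tested. Whether these properties had a part in the calls was not tested beyond the corrected fit given in the closing part. Being bulk RNA, the libraries cannot tell fewer cells with a transcript apart from less of it per cell.

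The genes furthest above WT were led by VSNL1 and ZBED2. VSNL1, a neuronal calcium sensor, was measured at 2.06, 2.30 and 2.76 CPM in WT and 16.4, 17.1 and 17.4 CPM in S181E cells. ZBED2, a zinc finger transcription factor, went from 2.68, 3.00 and 2.76 to 20.3, 17.5 and 21.6 CPM. For both genes the lowest S181E library stood far above the highest WT library, with log2 differences of 2.83 ± 0.12 and 2.81 ± 0.14. Genes were tested only with a CPM above 10 in at least 12 of the 24 fitted libraries. Both genes were below 10 CPM in every WT arsenite library, so that filter admitted them only through other libraries. SYTL2, a synaptotagmin-like protein of vesicle traffic, was 4.59-fold higher (14.2 to 15.1 CPM in WT, 65.7 to 68.3 CPM in S181E). DKK1, a secreted inhibitor of Wnt signaling, was 3.99-fold higher (52.2, 52.4 and 55.5 against 213, 219 and 207 CPM). TUBA4A, an alpha-tubulin (1.38 ± 0.11), the growth factor BMP4 (1.33 ± 0.07), C1orf116 (1.30 ± 0.21) and the epithelial keratin KRT7 (1.30 ± 0.12) completed the 8 largest rises. KRT7 was also below 10 CPM in every WT arsenite library (5.1 to 5.87 CPM, against 10.7 to 15.1 CPM in S181E). C1orf116 was below 10 CPM in every WT (3.49 to 3.69) and S181E arsenite library (7.82 to 9.74). The filter admitted C1orf116 only through libraries outside this comparison.

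The genes furthest below WT were led by HTR7 and KLK5. HTR7, a serotonin receptor, stood at 19.2, 19.1 and 19.2 CPM in WT and at 3.40, 3.16 and 3.65 CPM in S181E cells, a 5.59-fold difference (-2.48 ± 0.16, adjusted p = 1.9e-11). KLK5, a serine protease of stratified epithelia, went from 14.4, 12.5 and 15.2 to 2.92, 1.897 and 2.703 CPM (-2.48 ± 0.14). Neither gene had an S181E library near the WT range. The homeobox factor MKX (-2.36 ± 0.18), the membrane protein SUSD2 (-1.56 ± 0.16), the cyclic AMP phosphodiesterase PDE4B (-1.53 ± 0.07) and the nuclear receptor NR2F1 (-1.45 ± 0.06) were lower as well. HTR7, KLK5, MKX and SUSD2 were below 10 CPM in every S181E arsenite library, so the filter admitted them only through other libraries. CYP24A1, which degrades active vitamin D, was the most abundant of these, at 241, 231 and 224 CPM in WT and 80.6, 81.6 and 77.0 CPM in S181E cells (-1.54 ± 0.08). In control HTR7 differed by -2.78 ± 0.15, KLK5 by -2.89 ± 0.13 and MKX by -2.35 ± 0.17. NR2F1 differed by -1.40 ± 0.06, PDE4B by -1.07 ± 0.07 and CYP24A1 by -1.02 ± 0.08 there.

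**Figure D1:**
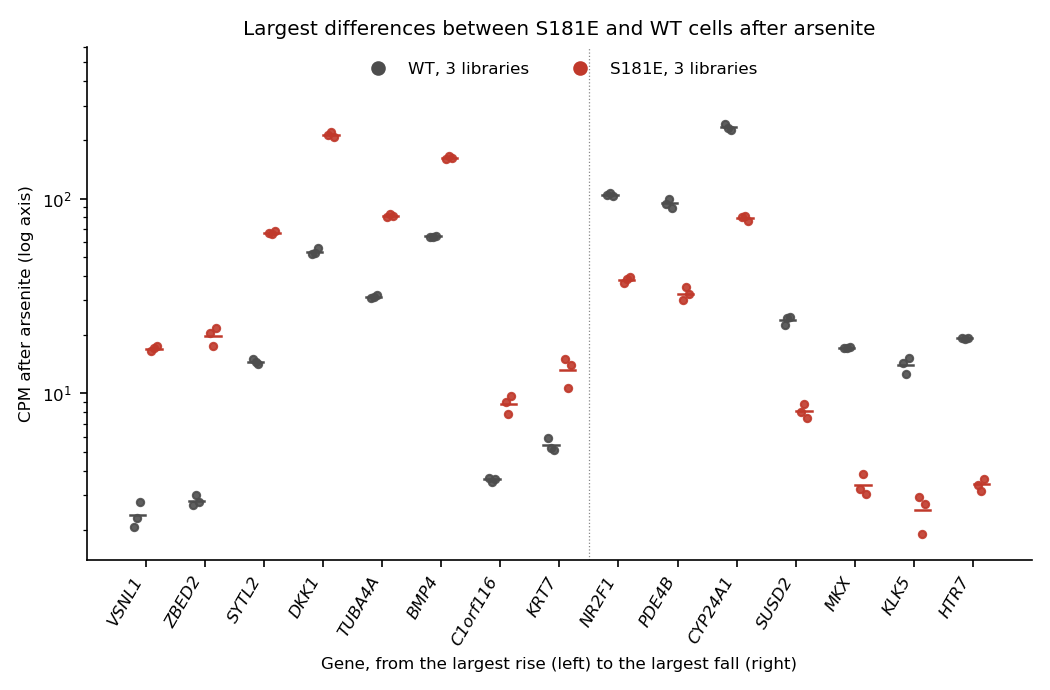
CPM after arsenite on a log axis for the 8 largest rises and 7 of the 8 largest falls outside the chromosome 8 stretch, 1 point per library and a bar at the mean of the 3 libraries of each genotype. In every gene shown the WT and S181E points do not overlap, from VSNL1 at 2.06 to 2.76 against 16.4 to 17.4 CPM to HTR7 at 19.1 to 19.2 against 3.16 to 3.65 CPM.

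KLK5 was part of a local group. The kallikreins are secreted proteases encoded side by side on chromosome 19, and the 5 of them that were tested lay within chr19:50943303-51020175. All 5 were called lower. KLK7 was at 91.7, 90.0 and 91.9 CPM in WT and 34.7, 33.5 and 32.4 CPM in S181E cells (-1.44 ± 0.06, adjusted p = 1.68e-15), followed by KLK10 (-1.27 ± 0.09), KLK6 (-1.23 ± 0.07) and KLK8 (-0.87 ± 0.07). In the wider list of kallikreins and stratified epithelial genes, 6 of 12 were called lower and 2 higher, beside 8.42% lower and 5.32% higher over all 9099 genes, with KRT80 at 1.17 and S100A2 at 0.61 log2 above WT. The median of the list was -0.44, beside -0.0057 for all genes tested. In control 8 of the 12 were called lower and 0 higher by edgeR, beside 15.4% and 15.7% of all genes. The control median of the list was -0.58, and KLK7 differed by -1.76 ± 0.05 there.

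The single parental arsenite library was set beside these genes. The study describes its control HCT116 cells as not engineered. IGF2BP2 stood at 151 CPM in that library, against 70.2 to 75.7 CPM in the 6 arsenite libraries of WT and S181E. The parental library thus differed from both genotypes by more than the S181E mutation. Among the 16 leading genes, its level lay nearer the S181E mean than the WT mean for 7, on the scale of log2(CPM + 0.5). VSNL1 (18.4 CPM), ZBED2 (15.3), TUBA4A (56.8), HTR7 (5.37), KLK5 (4.95) and PDE4B (16.5) were among those 7 genes. For DKK1 (82.6 CPM), BMP4 (61.1), MKX (18.4) and CYP24A1 (161) the parental level was nearer that of WT cells. Over all called genes outside the stretch, the parental library was nearer S181E for 199 of 483 higher (41.2%) and 249 of 575 lower genes (43.3%), beside 4154 of all 8892 genes tested there (46.7%). With 1 library there is no replicate check on these positions.

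A few of the heat shock chaperones were markedly lower in S181E cells. HSF1 targets carry heat shock elements, inverted repeats of GAA, in their promoters. The promoters of 2 called chaperone genes are shown because they hold the core of that element. HSPA1B encodes the inducible HSP70, and DNAJA1 encodes an HSP40 co-chaperone that feeds substrates to HSP70. The 250 bases before each start site are given 5′ to 3′ on the plus strand from RefSeq (GRCh38.p14), at chr6:31827488-31827737 and chr9:33025023-33025272, with GAANNTTC in capitals.
HSPA1B: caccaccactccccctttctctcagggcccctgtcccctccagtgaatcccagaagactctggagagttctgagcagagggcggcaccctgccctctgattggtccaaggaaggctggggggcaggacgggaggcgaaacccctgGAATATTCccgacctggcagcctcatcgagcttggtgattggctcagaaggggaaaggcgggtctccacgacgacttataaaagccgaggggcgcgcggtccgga
DNAJA1: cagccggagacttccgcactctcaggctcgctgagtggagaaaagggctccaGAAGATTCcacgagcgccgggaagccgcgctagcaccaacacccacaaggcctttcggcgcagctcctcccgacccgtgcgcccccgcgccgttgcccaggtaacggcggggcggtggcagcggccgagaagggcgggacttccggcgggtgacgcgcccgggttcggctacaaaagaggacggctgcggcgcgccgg
The motif begins 105 bases before the start of HSPA1B and 198 bases before that of DNAJA1, which has a further match at position 4 after its start. Searched on both strands in windows of 250 bases before to 50 after the start, GAANNTTC was found in 10 of 30 chaperone promoters (33.33%), in 3 of the 7 called lower, in 332 of 7508 promoters of tested genes (4.42%) and in 2377 of 35116 promoters of the table (6.77%). This form was added after a longer form of the element, which contains it and adds another GAA, had been found in 1 of those 7 promoters (23 of the 7508 tested, 0.31%). A match describes letters, not a bound site. Among the 3 called genes with a match was DNAJB1, whose window at chr19:14517888-14518187 lies inside the counted gene. The DNAJB4 window at chr1:77978925-77979224 lies before the counted gene, which starts at 78004939. These 2 windows may therefore not be the promoters in use.

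Of 33 heat shock chaperones tested, 8 were called lower and 0 higher by edgeR, beside 8.42% lower and 5.32% higher over all 9099 genes. The list's median was -0.018, near that of all genes, and 0.026 with library totals as the only scaling, so the difference lay with single members. HSPA1B was measured at 720, 704 and 723 CPM in WT and 336, 299 and 332 CPM in S181E cells. Every S181E library held less than every WT library, 2.22-fold less on average (-1.15 ± 0.07, adjusted p = 5.32e-12). HSPA1A is a near-identical copy, and it took 2.62 to 3.74% of their joint counts in the 6 libraries. The counts do not show what became of reads that match both genes. The parental line stood at 1006 CPM, RQ cells at 910 CPM and Y396E cells at 342 CPM on average.

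Several co-chaperones were lower as well. DNAJB1, the stress-inducible HSP40, was at 1687, 1656 and 1659 CPM in WT and 957, 862 and 903 CPM in S181E cells (-0.88 ± 0.05, adjusted p = 3.12e-13). HSPH1, an HSP110 that exchanges nucleotide on HSP70, went from 553, 585 and 555 to 311, 286 and 309 CPM (-0.90 ± 0.06). Each of these genes separated the genotypes completely. DNAJB4 (-0.85 ± 0.07), BAG3, an HSP70 partner in aggregate clearance (-0.60 ± 0.06), DNAJA4 (-0.52 ± 0.10) and DNAJA1 (652, 648 and 641 against 519, 492 and 510 CPM; -0.35 ± 0.05) were lower too. HSF1 itself lies on the chromosome 8 stretch and was lower by a similar factor to its neighbors, at 148, 147 and 150 against 111, 101 and 104 CPM (-0.50 ± 0.05). HSPA8, the constitutive HSP70, differed by -0.25 ± 0.05 and was not called. The HSP90 genes HSP90AA1 (0.01 ± 0.07) and HSP90AB1 (-0.05 ± 0.08) and the mitochondrial chaperonin HSPD1 (-0.02 ± 0.06) lay within their error of 0.

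Arsenite raised many chaperones less in S181E than in WT cells. In WT cells HSPA1B was 4.90 log2 higher in arsenite than in control, and in S181E cells 3.59 log2 higher. Before arsenite HSPA1B was not called, with mean levels of 23.9 CPM in WT and 26.8 CPM in S181E cells (0.17 ± 0.08, adjusted p = 0.11). The test of the difference itself, arsenite minus control, gave -1.32 ± 0.11 (adjusted p = 7.74e-08) for HSPA1B. The corresponding values were -1.10 ± 0.10 for DNAJB4, -0.77 ± 0.07 for DNAJB1, -0.72 ± 0.08 for HSPH1 and -0.71 ± 0.08 for DNAJA1. HSP90AA1 (-0.62 ± 0.10) and HSP90AB1 (-0.66 ± 0.11), level in arsenite, were higher in S181E cells in control by 0.63 ± 0.07 and 0.60 ± 0.08. In all, 23 of 33 chaperones were called lower in this test and 0 higher by edgeR, where 9.41% of all genes were called lower. In control 19 of the 33 were called higher in S181E cells and 3 lower, with a median of 0.32. Of all genes 15.7% were higher and 15.4% lower there. A negative value in this test thus need not mean a lower level after arsenite. Mitosis genes (19 of 28) and DNA replication genes (13 of 29) were called lower in it too. With library totals as the only scaling, the median of all genes in this test moved from -0.03 to -0.14.

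Cholesterol synthesis had the lowest median of the gene lists. SREBP2 binds sterol response elements, and its own gene carries one. The 250 bases before the SREBF2 start (RefSeq, GRCh38.p14, chr22:41832855-41833104, plus strand) are shown for that reason, with TCACNCCAC in capitals.
SREBF2: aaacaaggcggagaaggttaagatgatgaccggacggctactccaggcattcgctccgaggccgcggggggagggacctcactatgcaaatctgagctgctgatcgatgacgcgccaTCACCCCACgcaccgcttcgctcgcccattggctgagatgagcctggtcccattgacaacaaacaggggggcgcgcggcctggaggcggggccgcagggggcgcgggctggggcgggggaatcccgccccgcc
The match begins 133 bases before the start. Searched on both strands in the same windows, the motif was found in 1 of the 18 list members with a promoter in the table (5.56%), in 79 of 7508 tested genes (1.05%) and in 1.13% of all 35116 promoters.

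Of 25 genes of the sterol pathway and its control, 17 were called lower in S181E cells and 0 higher by edgeR, beside 8.42% and 5.32% of all genes. The list median was -0.50. Among the regulators, SREBF2 was at 232, 232 and 229 CPM in WT and 117, 124 and 122 CPM in S181E cells (-0.94 ± 0.05, adjusted p = 1.08e-12). INSIG1, its retention factor and itself a sterol-regulated gene, went from 38.1, 39.3 and 40.1 to 19.6, 19.8 and 19.0 CPM (-1.01 ± 0.09). In neither gene did the genotypes overlap. Of the enzymes, HMGCS1 opens the pathway and stood at 89.5, 83.4 and 87.5 against 50.4, 51.8 and 51.9 CPM (-0.76 ± 0.08). IDI1 (-0.77 ± 0.05), FDFT1 (-0.66 ± 0.06) and LSS (-0.49 ± 0.09), which act between isoprenoids and lanosterol, were lower. SQLE, the squalene epoxidase, fell furthest (61.2, 58.1 and 60.4 against 26.4, 19.4 and 22.9 CPM; -1.39 ± 0.10), but it lies on the chromosome 8 stretch, whose neighbors were lower as well. MVK, MVD, FDPS, PMVK, EBP, NSDHL, SC5D and LBR were not called.

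In control, where 31.1% of all genes were called, 15.4% lower and 15.7% higher, the same list had 16 members lower, 0 higher by edgeR and a median of -0.37, and SREBF2 differed by -1.08 ± 0.05 there. The difference at SREBF2 did not pass the test of arsenite minus control (0.14 ± 0.07, adjusted p = 0.185), whereas HMGCS1 (-0.47 ± 0.11, adjusted p = 0.00618) and LSS (-0.42 ± 0.14, adjusted p = 0.0313) did. The parental arsenite library exceeded the WT mean at SREBF2 (273 CPM), INSIG1 (74.7 CPM) and HMGCS1 (128 CPM). RQ cells were near WT at SREBF2 (259 CPM on average) and Y396E cells near S181E (118 CPM).

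**Figure D2:**
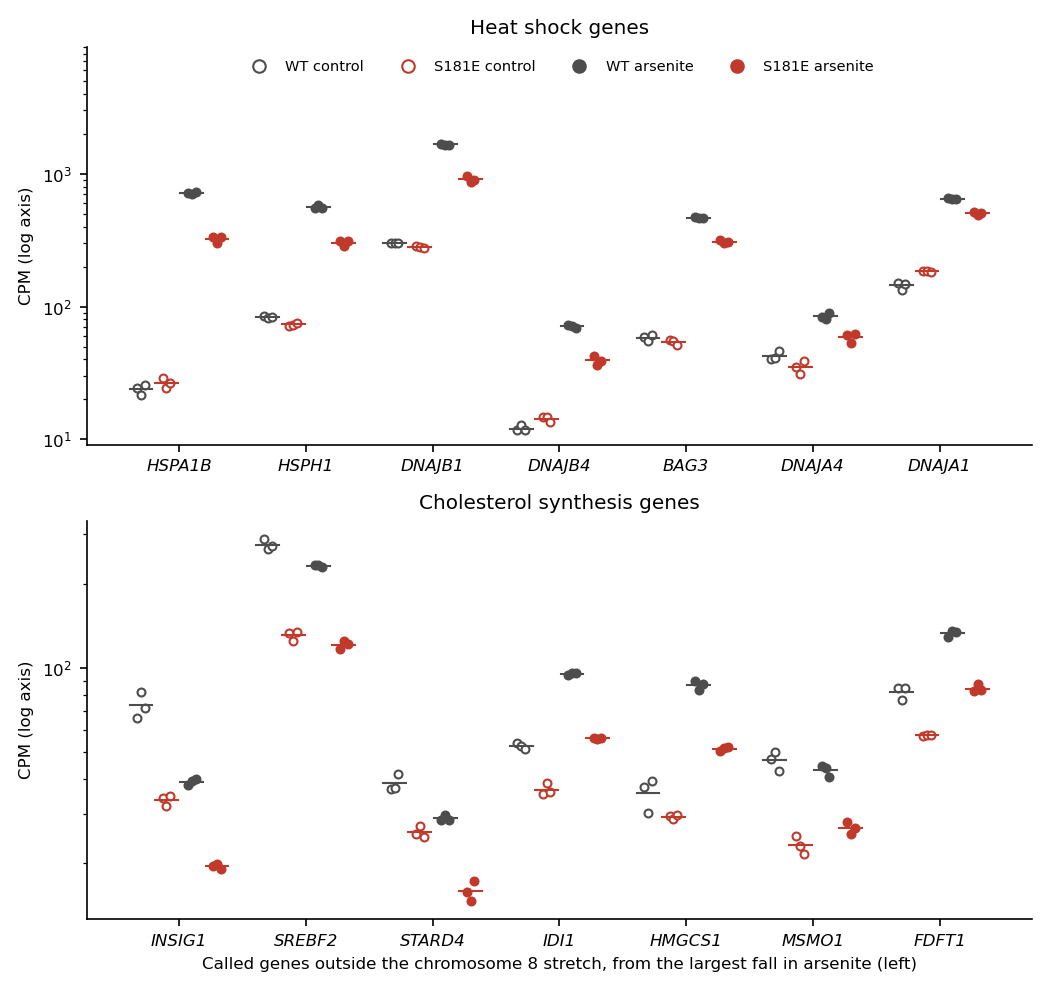
CPM on log axes for the 7 called heat shock genes (top) and the first 7 called cholesterol genes (bottom) outside the chromosome 8 stretch, ordered by their fall in arsenite; open points are control and filled points arsenite libraries, with bars at the mean of 3. HSPA1B starts at 23.9 and 26.8 CPM in control and separates only after arsenite, while SREBF2 is already apart in control at 275 and 131 CPM.

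Of 9 immediate early genes of the AP-1 family, 6 were called lower in S181E cells and 0 higher by edgeR, beside 8.42% lower and 5.32% higher over all genes. FOS was induced 7.73 log2 by arsenite in WT and 7.99 log2 in S181E cells, and stood at 1123, 1104 and 1119 against 1035, 1016 and 1017 CPM (-0.12 ± 0.06, adjusted p = 0.175). JUN was at 1278, 1242 and 1304 against 1079, 1019 and 1044 CPM (-0.28 ± 0.07, adjusted p = 0.0066). In control JUN was far lower in S181E cells, at 20.5 against 48.0 CPM on average (-1.23 ± 0.09), so its rise with arsenite was the larger one in those cells (arsenite minus control 0.95 ± 0.12, adjusted p = 1.15e-05). The AP-1 median was -0.33, and all 6 called lay between -0.28 and -0.39.

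Among 16 EGR, NR4A and IER genes, 6 were called lower and 1 higher (median -0.23), beside 8.42% and 5.32% of all genes. EGR3 lay lowest, at 98.7, 99.7 and 99.8 CPM in WT against 58.4, 50.1 and 50.9 CPM in S181E cells (-0.91 ± 0.11). NR4A2, an orphan nuclear receptor, followed at -0.52 ± 0.08. KLF2 went the other way, with 141, 140 and 140 CPM in WT and 243, 241 and 238 CPM in S181E cells (0.78 ± 0.05, adjusted p = 5.27e-11), a difference of the same size as in control (0.76 ± 0.06). With library totals as the only scaling, 3 of these 16 genes were called lower. The EGF receptor ligands AREG and EREG were lower too. AREG was at 229, 236 and 231 against 114, 114 and 121 CPM (-0.99 ± 0.08) and EREG at 493, 505 and 502 against 273, 276 and 280 CPM (-0.85 ± 0.07). The genotypes were far apart in both ligands. In control AREG differed by -1.71 ± 0.08 and EREG by -1.09 ± 0.07. The test of arsenite minus control gave 0.71 ± 0.11 for AREG (adjusted p = 0.000191), and EREG was not called in it (0.24 ± 0.10). Of the 7 genes of that list 3 were called lower, the third being the receptor ERBB3 (-0.34).

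NRF2 targets moved in both directions. Of 27 tested, 8 were called higher and 3 lower, beside 5.32% and 8.42% of all genes, with a median of 0.16. Ferritin light chain, FTL, was at 1403, 1397 and 1344 CPM in WT and 2200, 2149 and 2060 CPM in S181E cells (0.63 ± 0.06, adjusted p = 5e-08). Its partner in the ferritin shell, the heavy chain FTH1, went from 2721, 2714 and 2737 to 2281, 2310 and 2203 CPM (-0.27 ± 0.06, adjusted p = 0.0013). The FTH1 value lay close to the fold minimum and fell short of it under several settings. These were library totals (-0.223), DESeq2 and RLE factors (-0.254 each), no filter (-0.259) and scaling without mitochondrial genes (-0.263). It also fell short without replicate 3 of WT (-0.263) or of S181E (-0.246). The ferritin chains thus differed in opposite directions, without overlap of the genotypes in either. Of the antioxidant enzymes, the thioredoxin reductase TXNRD1 (286, 288 and 281 against 401, 406 and 396.3 CPM; 0.49 ± 0.04), OSGIN1 (0.54 ± 0.09), the cystine carrier SLC7A11 (0.31 ± 0.09) and the glutathione-synthesis subunit GCLM (0.30 ± 0.06) were higher. HMOX1, the heme oxygenase often used as a gauge of NRF2 activity under arsenite, stood at 39.8 to 41.1 in WT and 42.2 to 43.0 CPM in S181E cells (0.07 ± 0.10, adjusted p = 0.654). The export pumps ABCC2 (-0.43 ± 0.10) and ABCC3 (-0.35 ± 0.09) were lower. Of 5 metallothionein and zinc export genes, 3 were called lower and 0 higher by edgeR, among them MT2A (-0.39 ± 0.07) and the zinc exporter SLC30A1 (-0.44 ± 0.11).

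ATF4 targets were divided as well, with 3 of 27 called higher and 5 lower (median -0.10), beside 5.32% and 8.42% of all genes. The stress sensor SESN2 was at 60.1, 60.3 and 64.8 against 38.9, 32.5 and 37.0 CPM (-0.77 ± 0.11), and the factor ATF5 differed by -0.48 ± 0.09. SHMT2 and PHGDH of serine and glycine metabolism were higher by 0.33 ± 0.05 and 0.33 ± 0.09. DDIT3, a death-associated ATF4 target, did not differ past its error (-0.07 ± 0.08). In RQ cells SESN2 averaged 141 CPM and DDIT4 279 CPM, against WT libraries of 60.1 to 64.8 and 92.5 to 107 CPM. None of the 20 cytosolic aminoacyl-tRNA synthetases was called in either direction by edgeR after arsenite, although 16 were called higher in S181E cells in control, where 15.7% of all genes were. Of 22 p53 targets, 7 were called lower, SESN2 and the cell cycle inhibitor CDKN1A (-0.30 ± 0.04) among them, and 1 higher (median -0.19), beside the same shares of all genes, and 1 of the 7, RRM2B, lay on the chromosome 8 stretch. Of 22 ER chaperone and unfolded protein response genes only SDF2L1 was called (0.27, higher). That call was lost without any 1 of the S181E arsenite libraries, without replicate 2 or 3 of WT, with TMM factors set without the stretch (0.260) and with offsets for GC content and exon length (0.188).

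RNAs of the machinery around IGF2BP1 itself were little changed outside chromosome 8. Of 30 stress granule proteins 1 was called, lower, and of 18 writers, erasers and readers of m6A, the mRNA mark that IGF2BP proteins are known to recognize, 2 were called, both lower. All 3 lay on the chromosome 8 stretch. PABPC1, the poly(A)-binding protein, was at 2754, 2756 and 2780 against 1676, 1765 and 1744 CPM (-0.68 ± 0.04). YTHDF3, an m6A reader, was at 96.5, 96.7 and 95.4 against 43.15, 47.9 and 44.6 CPM (-1.09 ± 0.08), and VIRMA of the m6A writer complex differed by -0.49 ± 0.08. Of 76 cytosolic ribosomal proteins 4 were called lower, and of 68 nuclear oxidative phosphorylation genes 4, all on the same stretch. For translation factors the count was 3 lower of 41, again on the stretch, and 1 higher. Of 22 mRNA decay regulators 4 were called lower, among them BTG2 (-0.47) and ZFP36 (-0.46), which shorten poly(A) tails and bind AU-rich elements. Over all 9099 genes 8.42% were called lower and 5.32% higher.

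With TMM scaling, proteasome subunits formed the only list with every member above 0, all 29, but just 3 passed the fold minimum (PSMB3, PSMD13 and PSMC1, at 0.29, 0.28 and 0.26), with a median of 0.22. With GC and length offsets the calls of PSMB3 (0.195) and PSMD13 (0.226) were lost, the latter also without S181E replicate 1 or WT replicate 3. Of 9 Wnt pathway genes 3 were called higher and 0 lower by edgeR (median 0.25), DKK1 first and then NOTUM (0.61), both secreted inhibitors of the pathway. The cytoskeletal SRF and YAP targets had 2 of 17 higher and 2 lower, led upward by the actin crosslinker FLNA (472, 457 and 454 against 729, 727 and 696 CPM; 0.64 ± 0.06). DNA replication genes (2 higher of 29 and 2 lower, MCM4 and CCNE2, both on the stretch) and mitosis genes (3 higher, 2 lower of 28) differed little in arsenite. In control 24 and 23 of them were called higher in S181E cells, where 15.7% of all genes were. Of 13 transcripts of the mitochondrial genome, 3 were called lower and 0 higher by edgeR (median -0.26), MT-CO1 (-0.65 ± 0.13), MT-CYB (-0.64 ± 0.11) and MT-CO3 (-0.48 ± 0.12). The S181E libraries were uneven here, with list medians of -0.12, -0.17 and -0.47 against the WT mean in replicates 1, 2 and 3. Of 12 MAP kinase phosphatases and feedback genes 3 were lower and 1, DUSP4 (0.33 ± 0.05), higher, and of 9 NF-kB genes 2 were lower. Of 7 colorectal epithelium markers tested, CLDN4, a tight junction claudin, was lower (-0.44 ± 0.07). In control CLDN4 differed by -1.44 ± 0.07, and the test of arsenite minus control gave 1.00 ± 0.10 (adjusted p = 1.26e-06). The arsenite counts of all these lists stand beside 8.42% lower and 5.32% higher over all 9099 genes.

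**Figure D3:**
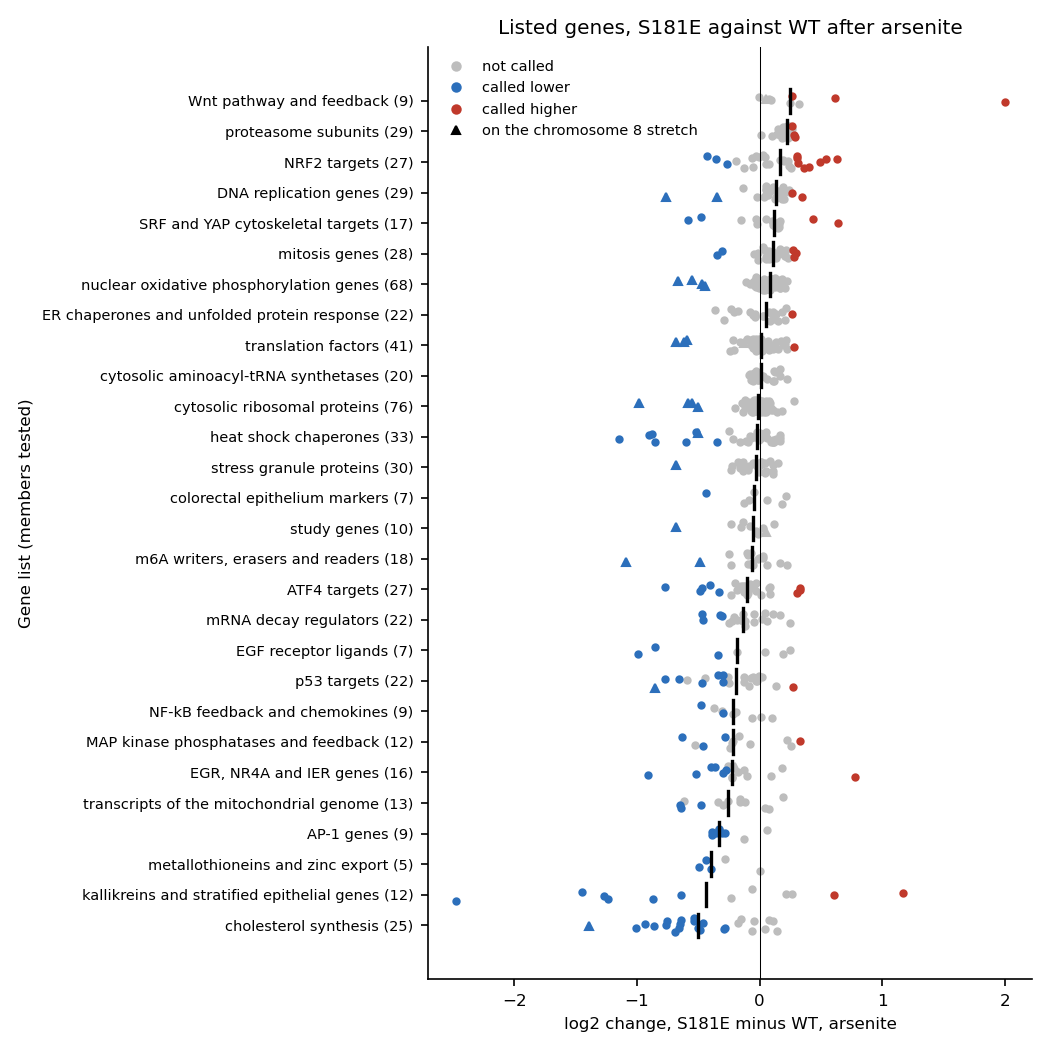
Log2 change, S181E minus WT after arsenite, of each tested member of 28 gene lists, with the number tested in parentheses, gray for not called, blue for called lower, red for called higher, triangles for genes on the chromosome 8 stretch and a bar at each list's median. Cholesterol synthesis lies lowest with a median of -0.50, and the called ribosomal, oxidative phosphorylation, stress granule and m6A genes are all triangles.

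The study discussed individual mRNAs, 10 of which were tested here. After arsenite 1 of them was called, PABPC1 on the chromosome 8 stretch. ACTB, the classic cargo of IGF2BP1, was at 4267, 4368 and 4494 CPM in WT and 4739, 4831 and 4709 CPM in S181E cells (0.12 ± 0.05, adjusted p = 0.0808). HMGA2 (-0.01 ± 0.06), EIF2A (-0.03 ± 0.06), GARS1 (-0.08 ± 0.07), PHC3 (-0.14 ± 0.07), LIPA (-0.15 ± 0.08), CCDC127 (0.03 ± 0.09) and MYC (0.05 ± 0.05) were not called. XBP1, a factor of the unfolded protein response, differed by -0.23 ± 0.08 with adjusted p = 0.0277, short of the fold minimum.

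On chromosome 8 the picture was of another kind. From HGSNAT (start 43140464) to the end of C8orf33 (145066685, hg38), 203 of 207 tested genes lay below 0 and 192 were called (92.8%), 191 lower (92.3%) and 1 higher (0.483%). The median difference was -0.57, a ratio of 0.673, and it was alike in each S181E library, at -0.577, -0.565 and -0.586 against the WT mean. The parental library had a median of 0.004 against WT over the same genes. On the rest of chromosome 8 the median of 115 genes was 0.048, with 14 called higher and 7 lower. The stretch had been chosen on earlier results of these data, so these counts describe it and do not test it. Its border was set with that choice, with FNTA (-0.21 ± 0.09) and POMK (-0.11 ± 0.09) just outside it and HGSNAT (-0.43 ± 0.13) just inside.

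The stretch was not uniform along its length. Over its first 20 Mb all 24 genes were called lower, with a median of -1.005 (ratio 0.498). Over the following 4 bins of 20 Mb the medians were -0.60, -0.55, -0.54 and -0.52. The 4 largest falls on the stretch were those of RB1CC1, an autophagy initiator (37.2, 37.7 and 36.4 against 11.2, 11.7 and 13.5 CPM; -1.60 ± 0.09), SQLE, NIPAL2 (-1.37 ± 0.09) and CEBPD (-1.33 ± 0.15). A few genes stood against the block. TMEM65, a mitochondrial membrane protein, was at 10.9, 12.5 and 12.4 CPM in WT and 15.0, 17.5 and 14.9 CPM in S181E cells (0.40 ± 0.10, adjusted p = 0.00573). MYC was at 267, 262 and 260 against 277, 277 and 264 CPM, and was not called. KHDRBS3 (0.11 ± 0.11), MAL2 (-0.05 ± 0.07) and NSMCE2 (-0.11 ± 0.08) were among other genes of the stretch that were not. In control the stretch had a median of -0.62. After arsenite Y396E cells had one of -0.60 and RQ cells one of 0.02 against the same WT libraries. A difference in DNA copy number and one in transcription cannot be told apart from RNA counts.

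**Figure D4:**
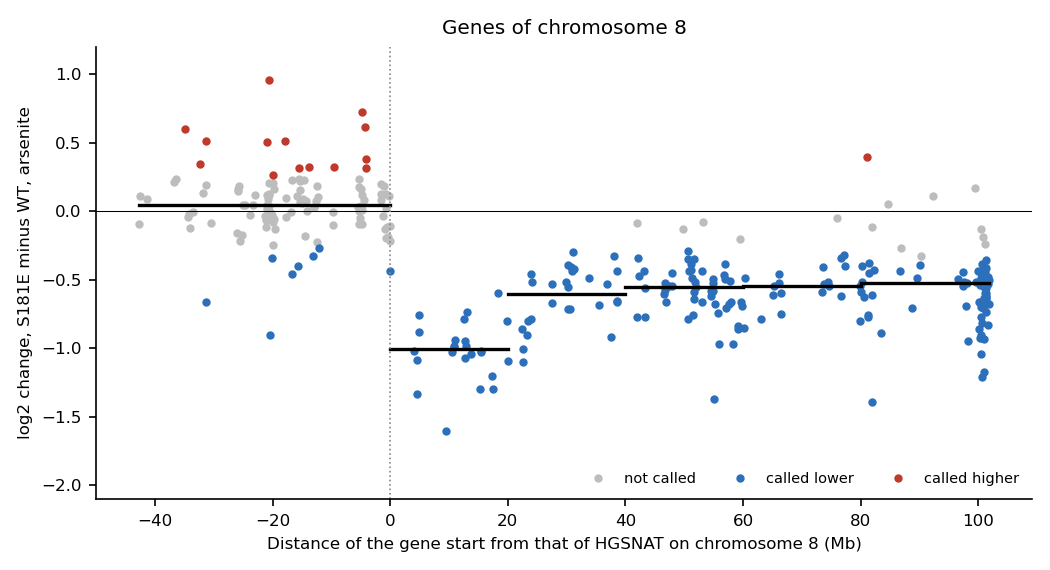
Log2 change, S181E minus WT after arsenite, of 322 tested genes of chromosome 8 by the distance of their start from that of HGSNAT in Mb, gray for not called, blue for called lower and red for called higher, with bars at the median of the genes before HGSNAT and of each 20 Mb bin after it. The medians step from 0.048 before HGSNAT to -1.005 in the first bin and to between -0.60 and -0.52 in the others.

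The genotypes were also compared without arsenite, in libraries that this contrast does not share. In control 2648 of 8892 genes outside the stretch were called (29.8%), more than the 1058 after arsenite, and the median absolute difference was 0.176 log2 in control and 0.108 log2 in arsenite. Called in both conditions were 616 genes, which made 58.2% of the arsenite calls and 23.3% of the control calls, and 610 of them had the same direction. TMEM158, AFAP1, CHD1, DNAJA1, NFKBIA and SEMA7A were the 6 that turned. DNAJA1 was higher in S181E cells in control (0.36 ± 0.05) and lower after arsenite (-0.35 ± 0.05). NFKBIA, the NF-kB inhibitor, likewise went from 0.35 ± 0.08 to -0.30 ± 0.08, the latter not called with library totals alone (-0.253; adjusted p = 0.0516).

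By the direct test, arsenite minus control, 1491 of 9099 genes were called (16.4%), 635 higher (6.98%) and 856 lower (9.41%). The share of higher calls was 42.6%, but far lower with library totals alone, at 256 of 1972. Without the WT control replicate 2 the count of calls fell to 746, of which 40.2% were higher. Outside the stretch 1455 genes were called, of which 913 differed between the genotypes in control and not in arsenite, 132 in arsenite and not in control, 84 in both and 326 in neither. Of the genes called after arsenite, 216 (20.4%) were also called in this test.

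ANGPTL4, a secreted inhibitor of lipoprotein lipase, was the furthest case. It stood at 14.3 CPM in WT and 4.79 CPM in S181E control cells on average, and after arsenite at 13.3, 9.55 and 11.6 against 13.3, 13.2 and 12.8 CPM (1.77 ± 0.18, adjusted p = 8.24e-07). WNT9A (1.47 ± 0.22) and the receptor kinase MERTK (1.45 ± 0.18) had the same form, called lower in S181E cells in control and not called after arsenite. DKK1 was the reverse, with a difference that was larger after arsenite. It fell from a mean of 914 to one of 53.4 CPM in WT cells, a change of -4.10 log2, and by less in S181E cells (-2.71 log2), so that the test gave 1.39 ± 0.12 (adjusted p = 8.5e-08). PARP1, a DNA damage sensor, was among the most negative (-0.78 ± 0.15), higher by 0.93 ± 0.11 in control and by 0.15 ± 0.10, not called, after arsenite.

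**Figure D5:**
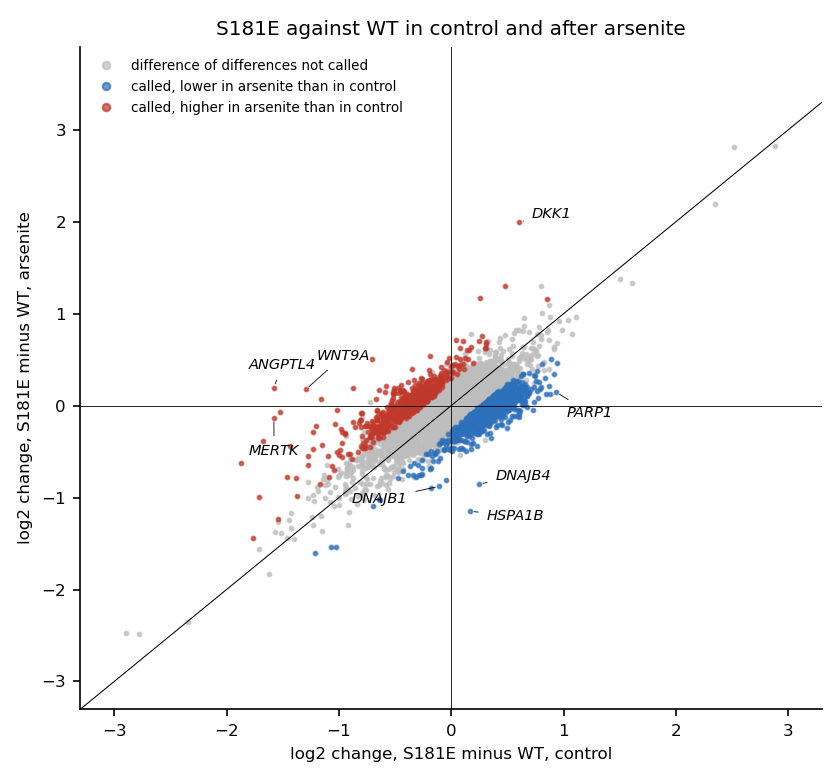
Log2 change, S181E minus WT, in control (x axis) and after arsenite (y axis) for 9099 genes, with the line of equal change and color for genes called in the test of arsenite minus control (635 higher in red, 856 lower in blue). HSPA1B, DNAJB4 and DNAJB1 lie below the line near 0 in control, and ANGPTL4, WNT9A and MERTK lie above it near 0 in arsenite.

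The other mutants, measured against the same 3 WT arsenite libraries, are set beside S181E only as values. Against WT, 1972 genes were called for Y396E (21.7%), 9.77% higher and 11.9% lower, and 138 for RQ (1.52%), 1.36% higher and 0.154% lower. HSPA1B differed by -1.15 in S181E, -1.07 in Y396E and 0.35 in RQ cells. SREBF2 differed by -0.94, -0.97 and 0.16, and SYTL2 by 2.20, 2.26 and -0.26. KLK7 differed by -1.44, -1.43 and 0.11, FTL by 0.63, 0.76 and 0.01, and HTR7 by -2.48, -2.94 and 0.05. Without the Y396E replicate 3 the values of Y396E were -1.05 for HSPA1B, -0.91 for SREBF2, 2.30 for SYTL2, -1.39 for KLK7, 0.74 for FTL and -2.70 for HTR7, and 1674 genes were called. Because the contrasts share their WT libraries, any likeness among them includes what those 3 libraries contribute.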

How the data were processed

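Per the study's methods and the file headers, the authors trimmed single-end reads of strand-specific poly(A) libraries, aligned them to hg38 with STAR 2.7.11b and counted them per gene with featureCounts (Subread 2.0.6, strand setting 2, GENCODE 46). What they deposited are raw counts, whole numbers for each gene. Symbols and coordinates were taken from GENCODE 44 by gene ID (62541 of 63086 IDs matched), and the 545 IDs without a match held 0.0272 to 0.0356% of counts.

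The counts of 24 libraries (4 genotypes, 2 treatments, 3 replicates; the parental libraries, 1 per treatment, stayed out) were fitted together in edgeR 4.0.16 (R 4.3.3) with 1 mean per group, TMM factors (0.865 to 1.086) and the quasi-likelihood test with 16 residual degrees of freedom. Protein-coding genes with a CPM above 10 in at least 12 libraries were tested (9099). P-values were adjusted over all of them by Benjamini-Hochberg, with a call at adjusted p under 0.05 and a fold above 1.2. CPM are given per TMM-scaled library of tested genes. Markers are given as CPM of all protein-coding counts, and the mitochondrial share as a percent of the library's counts. Dishes of 1 genotype were plated separately, and their replicate numbers carry no stated pairing. The fit was tested on simulated counts. Counting error is small at these depths, and the median SE of a log2 difference was 0.077.

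Genes named are IGF2BP1 to IGF2BP3, mRNAs the study discusses, the 8 largest rises and falls outside the chromosome 8 stretch, the most abundant called genes, the 4 largest in the stretch and in each direction of the arsenite minus control test, and the leading and defining members of each list. Some genes that this rule picks are not reported here. KLK, promoter and parental values were singled out after values were seen, as were further list members. The members of the comparison, the stretch and the gene lists were chosen with earlier results of these data known. Alternatives tried were DESeq2 1.42.0, other scalings, filters, gene types, thresholds and samples, a replicate block, each library left out in turn, and, chosen after seeing the data, a fit without the 13 mitochondrial genes, offsets for GC content and exon length, and Y396E values without replicate 3.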

Additional observations from a re-analysis of the deposited data

Results flagged for a closer look

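The test of the S181E minus WT difference in arsenite minus that in control called 1491 genes, which put this whole contrast, and the genes named from it, among results where 2 conditions differ. Of those furthest in the negative direction, HSPA1B differed by -1.32 log2, DNAJB4 by -1.10, PARP1 by -0.78 and DNAJB1 by -0.77, with the S181E cells lower relative to WT in arsenite than in control. Of those furthest in the positive direction, ANGPTL4 differed by 1.77 log2, WNT9A by 1.47 and MERTK by 1.45. Transcripts of the mitochondrial genome took 21.1 to 26.9% of counts in WT and 11.7 to 14.3% in S181E control libraries, and their part in these differences was not tested beyond the fit without them. Groups of 3 libraries were too small for the test of single outlying samples, although the replicate 3 of Y396E after arsenite had 13897 genes with counts against 20850 to 23473 in every other library. Without it 2149 genes were called in arsenite minus control.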

How the results depend on the processing

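Outside the chromosome 8 stretch, the count of 1058 called genes became 1901 without a fold minimum and 30 with a minimum fold of 2, lay between 911 and 1209 when libraries were left out in turn, and stayed within 1.5 times the reported count under the other settings (DESeq2 1078, RLE 1053, library totals 1119, TMM without the stretch 1060, no filter 1268, CPM above 1 in 3 libraries 1339, all gene types 1066, only the groups compared 1214, without mitochondrial genes 1095, GC and length offsets 1012). The stretch median was -0.560 with RLE factors, -0.528 with totals, -0.539 without a filter, -0.558 with all gene types, -0.542 with GC and length offsets, and -0.588 to -0.566 with libraries left out. IGF2BP1 (0.57) did not pass a minimum fold of 2, with 0.537 to 0.592 on leaving libraries out. IGF2BP3 passed the threshold with totals (0.274), without a fold minimum (0.230) and with GC and length offsets (0.293). It lay between 0.207 and 0.241 with libraries left out, and IGF2BP2 between 0.005 and 0.044. The arsenite minus control test called 12 genes at a minimum fold of 2 and 746 to 2149 with libraries left out, the former when WT control replicate 2 and the latter when Y396E arsenite replicate 3 was left out, and its share of higher calls was 56.4% of 1210 with GC and length offsets. Listed genes called numbered 123, and 114 to 135 with libraries left out. The sign changed only for uncalled genes, EIF2A (0.014 with totals, 0.039 with offsets), HMGA2 (0.030 with totals, 0.092 with offsets, -0.028 to 0.002 with libraries left out) and CCDC127 (-0.023 to 0.121 with libraries left out). The cause of these changes was not tested. Same-numbered WT and S181E arsenite libraries had correlated deviations of 0.005 to 0.105, and 2 of 6 libraries correlated best with their own number. The numbers were therefore not taken as pairs in the main fit. In control the same-numbered values were higher, at 0.014, 0.239 and 0.309 for WT with S181E and 0.291, 0.525 and 0.472 for WT with RQ. What the control libraries of 1 number share was not tested beyond a fit with a replicate block. The replicate block gave 1090 calls, 1652 in the arsenite minus control test, 129 listed genes called and a stretch median of -0.572.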
